A study of Mus musculus with 6 samples.

Results

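The transcripts described here are those of myostatin, activin and TGF-β signalling in muscle stem cells: the ligand genes Mstn, Inhba, Inhbb, Tgfb1 and Tgfb2, the antagonist gene Fst, and the receptor genes Acvr2a, Acvr2b, Tgfbr1 and Tgfbr2. They were taken by symbol from the table of all genes, and 10 of 10 were found among 24980 symbols. The rule uses symbols alone. RNA-seq was done on 3 libraries of genotype scERα KO, in which estrogen receptor α was targeted, and 3 of genotype scERα WT. Each holds satellite cells, the stem cells of skeletal muscle, isolated with a flow cytometer from hindlimb muscle of C57BL6/J adults. Mice of both genotypes had been given tamoxifen, 10 mg in total, to induce Cre. The Cre driver, the sex and exact age of the mice and whether a library is 1 mouse are not given in the sources used here, and p-values rest on library-to-library spread, some of which may be technical.

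Ligands of the TGF-β superfamily are secreted as precursors, and their mature part acts as a dimer on a complex of type II and type I receptor kinases. The receptors phosphorylate Smad proteins, which then act on transcription in the nucleus. Myostatin, made mainly by muscle fibres, holds back muscle growth. Activins are dimers of inhibin β subunits and, like myostatin, bind the activin type II receptors. Follistatin binds activins and myostatin and keeps them from their receptors. TGF-β binds its own type II receptor, which recruits the type I receptor Tgfbr1, and it is known to hold back the proliferation and fusion of myogenic cells.

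Levels are given as TPM, a transcript abundance corrected for length and expressed against the whole library, so they can be set side by side between genes. The listed symbols took between 29.5% and 33.4% of the TPM scale per library. Depth is unknown, since TPM does not keep it, and no counting interval is given. Esr1, the targeted gene, had 2.92, 3.69 and 3.87 TPM in KO libraries, against 7.53, 6.96 and 6.94 TPM in WT libraries, and its groups did not overlap (log2 difference -0.86, SE 0.13, limma adjusted p = 0.0925). All 11 satellite cell markers, among them Pax7 and Calcr, were above 0 in every library, and their summed level ranged from 442.5 to 567.8 TPM in KO and from 397.8 to 541.9 TPM in WT. The 11 markers of fibro-adipogenic progenitors and fibroblasts summed to between 121.7 and 155.0 TPM in KO and between 79.2 and 180.4 TPM in WT. Their values were uneven, with Pdgfra at 0.31 TPM or less in all 6 libraries and Col3a1 between 45.0 and 71.3 TPM in KO and between 21.8 and 116.6 TPM in WT. Dpt had 42.68, 50.86 and 39.14 TPM in KO, against 31.07, 23.43 and 25.83 TPM in WT. Cd34 had 18.03, 20.06 and 17.89 TPM in KO, against 17.43, 17.16 and 16.65 TPM in WT. Neither overlapped, and both were picked out after their values were seen. Of the 11 markers, 8 had a higher mean log2(TPM + 1) in KO, where 77.6% of all genes tested were higher. Of the 7 tested, 0 had a limma adjusted p under 0.05. The 10 leukocyte markers summed to between 5.42 and 9.17 TPM in KO and between 3.46 and 9.62 TPM in WT, with Ptprc at 0.29 TPM or less and Lyz2 up to 3.38 TPM in KO and 4.88 TPM in WT. The 8 Schwann cell markers summed to between 33.3 and 46.1 TPM in KO, against 30.7 and 31.6 TPM in WT, so those sums did not overlap. Ncam1 made up most of each sum, at 25.0 to 27.8 TPM in KO and 21.7 to 24.9 TPM in WT, while Sox10 was at 0.42 TPM or less. Of the 8 markers, 7 had a higher mean log2(TPM + 1) in KO. Of the 5 tested, 0 had a limma adjusted p under 0.05. The 5 erythroid markers summed to between 38.4 and 437.3 TPM in KO and between 18.2 and 214.7 TPM in WT, with KO libraries 1 and 2 and WT library 1 high. In bulk libraries, fewer cells of a type and less RNA per cell cannot be told apart.

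The promoters of 4 ligand genes are shown. Inhbb and Inhba, which encode alternative activin subunits, had KO means on opposite sides of their WT means, although neither difference passed an adjusted threshold. Mstn and Tgfb2 were the least and the most abundant members. The sequences are those of RefSeq on GRCm38.p6, from 250 bases before to 50 after the annotated start, read along the strand of the gene. A promoter was matched for 9 of the 10 members. Capitals mark the half-site of an estrogen response element (GGTCA, or TGACC on the other strand) and the TATA box (TATAAA, searched on both strands). The windows are chr1:119422199-119422498 (minus strand) for Inhbb, chr13:16011601-16011900 (plus strand) for Inhba, chr1:53061390-53061689 (plus strand) for Mstn and chr1:186705940-186706239 (minus strand) for Tgfb2.
Inhbb: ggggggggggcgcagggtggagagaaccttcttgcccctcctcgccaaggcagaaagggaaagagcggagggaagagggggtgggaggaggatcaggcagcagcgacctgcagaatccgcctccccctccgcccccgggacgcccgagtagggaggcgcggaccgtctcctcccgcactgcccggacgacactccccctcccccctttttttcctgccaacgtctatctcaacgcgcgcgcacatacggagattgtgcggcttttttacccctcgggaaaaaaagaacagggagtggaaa
Inhba: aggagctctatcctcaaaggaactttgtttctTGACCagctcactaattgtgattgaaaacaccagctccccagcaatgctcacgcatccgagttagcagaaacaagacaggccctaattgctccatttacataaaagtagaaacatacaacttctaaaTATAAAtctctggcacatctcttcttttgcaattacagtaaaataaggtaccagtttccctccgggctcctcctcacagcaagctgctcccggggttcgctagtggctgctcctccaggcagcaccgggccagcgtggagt
Mstn: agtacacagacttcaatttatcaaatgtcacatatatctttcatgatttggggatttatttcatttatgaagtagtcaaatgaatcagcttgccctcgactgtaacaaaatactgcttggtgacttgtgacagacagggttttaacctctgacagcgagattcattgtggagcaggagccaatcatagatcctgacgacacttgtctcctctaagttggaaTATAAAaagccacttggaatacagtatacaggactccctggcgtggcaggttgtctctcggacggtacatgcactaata
Tgfb2: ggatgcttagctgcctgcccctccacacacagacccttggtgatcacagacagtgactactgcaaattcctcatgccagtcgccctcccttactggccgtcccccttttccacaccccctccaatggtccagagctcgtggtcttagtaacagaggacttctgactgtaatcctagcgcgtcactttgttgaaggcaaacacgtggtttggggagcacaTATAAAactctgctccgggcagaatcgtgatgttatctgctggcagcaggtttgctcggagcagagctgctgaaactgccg

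The Inhbb window held neither motif, and 64.3% of its bases were G or C, with 23 CpG dinucleotides. Inhba held 1 half-site, at position -218 from the start, and 1 TATA box, at position -91, in a window of 47.7% G or C with 7 CpG. Over all 32851 promoter windows the median was 52.7% G or C and 7 CpG, and 40.5% of windows held a half-site. Mstn held a TATA box at position -29 and Tgfb2 at position -31, a motif found in 13.6% of all windows. The windows of Tgfb1 and Tgfbr1, not printed, also held a half-site. The full estrogen response element, 2 facing half-sites with 3 bases between them, was in none of the matched members' windows and in 0.07% of all. A match describes letters in this window and is not evidence of binding.

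The ligand with the largest difference among the tested members was Inhbb, which encodes the inhibin βB subunit of activin B and of inhibin B (chromosome 1, 119415465 to 119422248, GRCm38, minus strand). Inhbb had 1.08, 2.13 and 1.89 TPM in KO libraries, against 2.64, 2.12 and 3.54 TPM in WT libraries. All KO values but that of library 2 lay below every WT value, and KO library 2 exceeded WT library 2 by 0.01 TPM as listed, so the groups overlapped by that margin. The means were 1.70 ± 0.550 TPM in KO and 2.77 ± 0.718 TPM in WT (SD, n = 3 each), and KO held 61.4% of WT. On log2(TPM + 1) the difference was -0.48 (SE 0.20), with a 95% interval of -0.94 to -0.03, an unadjusted limma p of 0.0384 and a limma adjusted p of 0.428. It ranked 806 among 8971 genes ordered by p. Over the 15 alternative settings the log2 difference stayed between -0.69 and -0.21 and the limma adjusted p between 0.129 and 0.798. Without KO library 1, the lowest in Inhbb, the difference was -0.31 (limma adjusted p = 0.484), and without WT library 3, the highest, it was -0.34 (limma adjusted p = 0.798).

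Inhba, which encodes the inhibin βA subunit of activin A, had the opposite order (chromosome 13, 16011851 to 16031621, plus strand). Its values were 0.88, 0.52 and 0.86 TPM in KO libraries, against 0.51, 0.51 and 0.33 TPM in WT libraries. The groups did not overlap, although KO library 2 stood 0.01 TPM above the highest WT values as listed. The mean was 0.753 ± 0.202 TPM in KO and 0.450 ± 0.104 TPM in WT (SD, n = 3 each). The exact permutation test, two-sided, returned p = 0.1, which is the smallest value that 3 against 3 libraries allow. Every value was under 1 TPM, so Inhba did not enter the main test, for which a gene needed 1 TPM in at least 3 of the 6 libraries. With no filter on low values its log2 difference was 0.27 (SE 0.12), with a limma adjusted p of 0.682. The size of this value depends on the scale, being 0.62 at a pseudocount of 0.1, 0.08 at a pseudocount of 5 and 0.67 with protein-coding genes rescaled. Among the 11535 symbols above 0 that fell below the filter, the groups did not overlap in 7.46%, and KO lay above WT in 5.74%. A pseudogene annotated on the other strand of Inhba, B230303A05Rik, was at 0.05 TPM or less.

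The balance of these subunits can be read inside each library, where scaling between libraries cancels. Inhba made up 44.9%, 19.6% and 31.3% of the summed Inhba and Inhbb level in KO libraries, against 16.2%, 19.4% and 8.53% in WT libraries. Inhbb exceeded Inhba in all 6 libraries, by 1.23-fold to 4.10-fold in KO and by 4.16-fold to 10.7-fold in WT. The ratios of the groups did not overlap, by a small margin between KO library 2 and WT library 2. Of the 36 pairs among the 9 members above 0 in every library, 12 had ratios that did not overlap between the groups, and 6 of those 12 held Inhbb. That is 33.3% of the member pairs, where 12.8% of all pairs among the 15639 genes above 0 in every library had such ratios. Pairs that share a gene are not independent, so nothing particular to the members is read from it. These ratios were formed after the values were seen, share their numerators and denominators, and were given no test.

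Mstn, which encodes myostatin, was close to 0 throughout (chromosome 1, 53061640 to 53068079, plus strand). It was listed at 0.08, 0.03 and 0.02 TPM in KO libraries, against 0.01, 0.09 and 0 TPM in WT libraries. The groups overlapped over nearly their whole range, and no ratio is given at this level. Its mean over the 6 libraries was higher than that of 30.2% of all listed symbols. Muscle fibre markers summed to between 8.43 and 44.0 TPM over 8 genes in KO and between 12.4 and 28.8 TPM in WT. Their part in the Mstn values was not tested.

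Tgfb2, which encodes the TGF-β2 precursor, was the most abundant member and its groups did not differ beyond the spread between libraries (chromosome 1, 186622792 to 186705989, minus strand). It had 7.77, 8.91 and 8.46 TPM in KO libraries, against 10.13, 7.03 and 8.85 TPM in WT libraries. The 3 KO values lay inside the WT range. The means were 8.38 ± 0.574 TPM in KO and 8.67 ± 1.56 TPM in WT (SD, n = 3 each). The log2 difference was -0.03 (95% interval -0.38 to 0.32, limma adjusted p = 0.941). For TPM as deposited, changes beyond 0.767-fold or 1.25-fold on the log2(TPM + 1) scale lie outside the interval. These bounds do not carry over to other scalings. The difference was -0.17 (SE 0.18) by median of ratios and -0.19 (SE 0.17) by quantile normalization.

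Tgfb1, which encodes TGF-β1, was less abundant (chromosome 7, 25687002 to 25705077, plus strand). It had 1.35, 1.91 and 1.37 TPM in KO libraries, against 0.86, 1.23 and 1.36 TPM in WT libraries. KO library 1 lay 0.01 TPM below the highest WT value, so the groups overlapped. The means were 1.54 ± 0.318 TPM in KO and 1.15 ± 0.259 TPM in WT (SD, n = 3 each). The log2 difference was 0.24 (95% interval -0.10 to 0.58; limma adjusted p = 0.599), and 0.14 without KO library 2 or without WT library 1. In each library Tgfb2 exceeded Tgfb1, by 4.67-fold to 6.18-fold in KO and by 5.72-fold to 11.8-fold in WT. The summed Tgfb1 and Tgfb2 level was 9.92 ± 0.854 TPM in KO and 9.82 ± 1.41 TPM in WT (SD, n = 3 each).

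**Figure D1:**
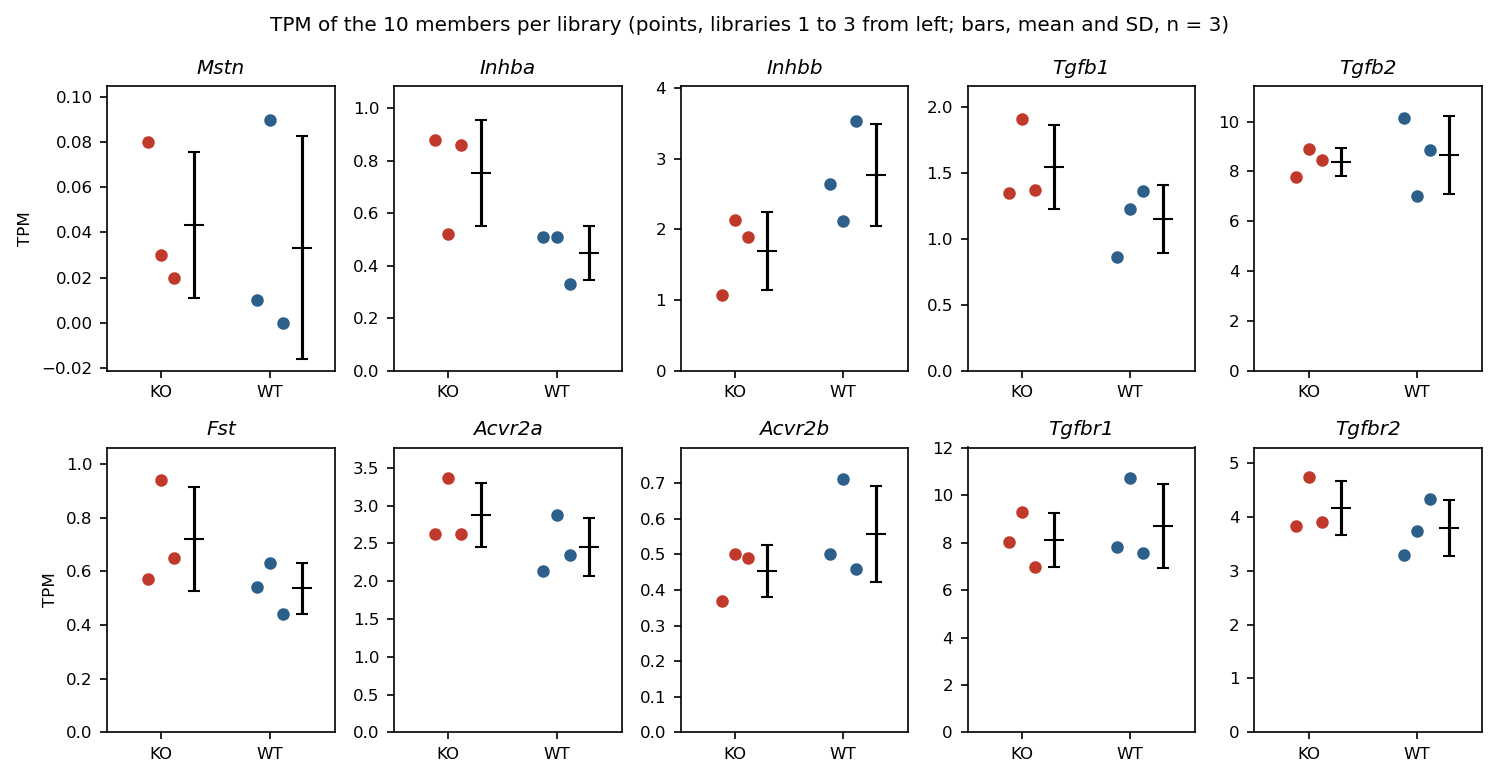
TPM of each of the 10 members (vertical axis, a separate scale per gene) in KO libraries (left, red) and WT libraries (right, blue); points are libraries 1 to 3 from left to right and the black bars give the mean and SD. The KO points of Inhba lie above those of WT, those of Inhbb lie below except for a near tie at 2.13 and 2.12 TPM, and in the other 8 genes the groups overlap.

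Fst, which encodes follistatin, lay below 1 TPM in all libraries (chromosome 13, 114452290 to 114458951, minus strand). It had 0.57, 0.94 and 0.65 TPM in KO libraries, against 0.54, 0.63 and 0.44 TPM in WT libraries. KO library 1 lay inside the WT range and the other two KO values above it. The means were 0.720 ± 0.195 TPM in KO and 0.537 ± 0.0950 TPM in WT (SD, n = 3 each; exact two-sided permutation p = 0.2). With no filter the log2 difference was 0.16 (SE 0.12, limma adjusted p = 0.786), and it was 0.35 at a pseudocount of 0.1, 0.05 at a pseudocount of 5, 0.40 with protein-coding genes rescaled and 0.07 without KO library 2. Set against its ligands within each library, Fst amounted to 0.279, 0.351 and 0.235 of the summed Inhba, Inhbb and Mstn level in KO, against 0.171, 0.232 and 0.114 in WT. The groups did not overlap in this ratio, whose denominator is mostly Inhbb and which was not tested.

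Among the activin type II receptors, Acvr2a was the more abundant (chromosome 2, 48814109 to 48903269, plus strand). Acvr2a had 2.63, 3.36 and 2.62 TPM in KO libraries, against 2.13, 2.88 and 2.34 TPM in WT libraries. The groups overlapped through WT library 2. The log2 difference was 0.17 (95% interval -0.15 to 0.48; limma adjusted p = 0.686). It was smaller without KO library 2 (0.08), without WT library 1 (0.10), by median of ratios (0.06) and by quantile normalization (0.04), and larger with protein-coding genes rescaled (0.28). The end of Acvr2a overlaps that of Orc4 on the other strand over chromosome 2, 48902824 to 48903269, and without a stated strand setting reads there cannot be told apart. Orc4 reached 8.23 TPM in its highest library. Other members also have genes annotated on the other strand. These are Gm48444 at Inhba, Gm47320 at Acvr2b, Gm47040 at Fst, and Gm26169 and Gm29491 at Tgfb2. They were not among the listed symbols and have no level here.

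Acvr2b, which encodes the other activin type II receptor and is the main one for myostatin, was lower in level (chromosome 9, 119402118 to 119434995, plus strand). It had 0.37, 0.50 and 0.49 TPM in KO libraries, against 0.50, 0.71 and 0.46 TPM in WT libraries. The groups overlapped (exact two-sided permutation p = 0.5), and the gene did not pass the filter. Its log2 difference was -0.10, with -0.24 at a pseudocount of 0.1 and -0.03 at a pseudocount of 5, and with -0.05 without KO library 1 and -0.03 without WT library 2. Acvr2a exceeded Acvr2b in every library, 5.35-fold to 7.11-fold in KO and 4.06-fold to 5.09-fold in WT, ranges that did not overlap. This ratio rests on Acvr2b values of 0.71 TPM or less.

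Tgfbr1, the type I receptor for TGF-β, was the second most abundant member (chromosome 4, 47353222 to 47414931, plus strand). It had 8.05, 9.29 and 7 TPM in KO libraries, against 7.84, 10.74 and 7.56 TPM in WT libraries. KO library 3 was the lowest of the 6 and WT library 2 the highest. The log2 difference was -0.08 (95% interval -0.47 to 0.30; limma adjusted p = 0.857). Tgfbr2, the type II receptor that binds the ligand (chromosome 9, 116084293 to 116175360, minus strand), had 3.83, 4.73 and 3.90 TPM in KO libraries, against 3.29, 3.74 and 4.33 TPM in WT libraries. The groups overlapped, with a log2 difference of 0.11 (95% interval -0.21 to 0.42; limma adjusted p = 0.776), a sign that turned under scaling by the median of ratios (-0.01) and quantile normalization (-0.04). The receptor pair summed to 12.3 ± 1.6 TPM in KO and 12.5 ± 1.76 TPM in WT (SD, n = 3 each).

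Taking the members together, 6 of 10 passed the filter, with 3 at a higher and 3 at a lower mean in KO, against 6959 higher and 2012 lower among all 8971 genes tested. By limma 0 of the 6 passed the adjusted threshold of 0.05, which 0.0557% of all genes tested passed (0.0334% higher, 0.0223% lower in KO). At an unadjusted limma p under 0.05, 1 of the 6 was found, Inhbb, in a table where 10.6% of genes had such a p. Of all genes, 708 were higher and 239 lower at that level, a split that median-of-ratios scaling turned to 355 higher and 435 lower. None of the 6 had groups that did not overlap, against 16.6% of all genes tested. The median log2 difference of the 6 was 0.04, and that of all genes tested was 0.12. Scaling by the median of ratios moved the median of all genes tested to 0.01. It moved Inhbb from -0.48 to -0.60, Tgfb1 from 0.24 to 0.15 and Acvr2a from 0.17 to 0.06. Tgfbr1 moved from -0.08 to -0.22, Tgfb2 from -0.03 to -0.17 and Tgfbr2 from 0.11 to -0.01. The even split of the 6 members by direction therefore holds for TPM as deposited. KO library 2 was the highest KO library in 8 of the 10 members and WT library 2 the highest WT library in 5. The same count was not made over all genes, so nothing particular to the members is read from it.

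**Figure D2:**
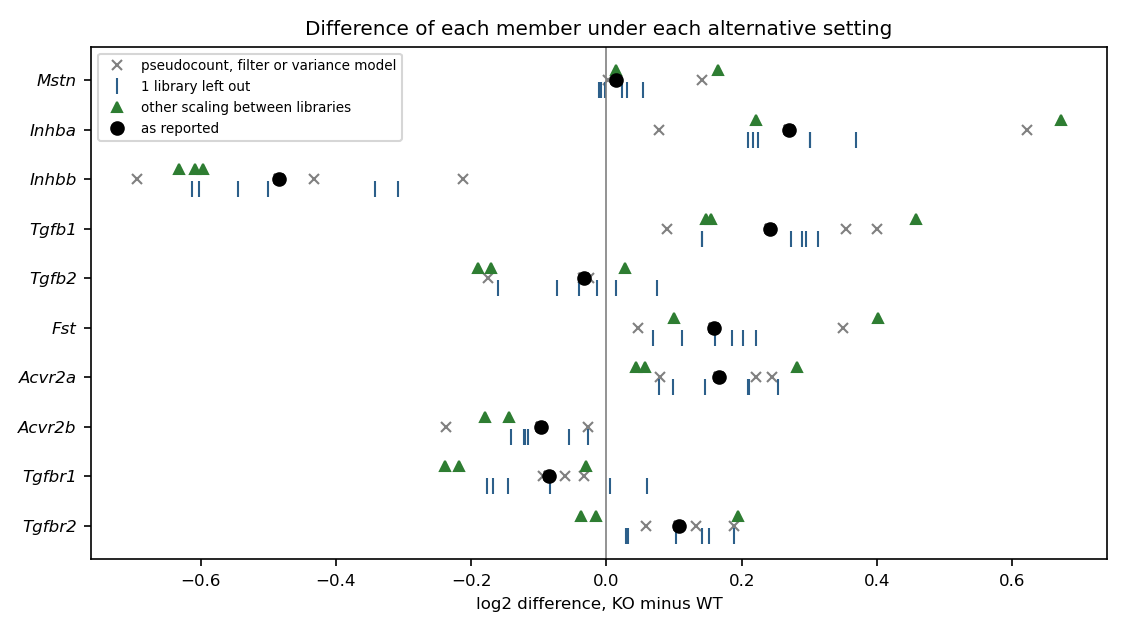
Log2 difference, KO minus WT, of each member as reported (black circles), with another pseudocount, filter or variance model (grey crosses), with another scaling between libraries (green triangles) and with 1 library left out (blue ticks). All values of Inhbb lie between -0.69 and -0.21, while those of Mstn, Tgfb2, Tgfbr1 and Tgfbr2 fall on both sides of 0.

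**Figure D3:**
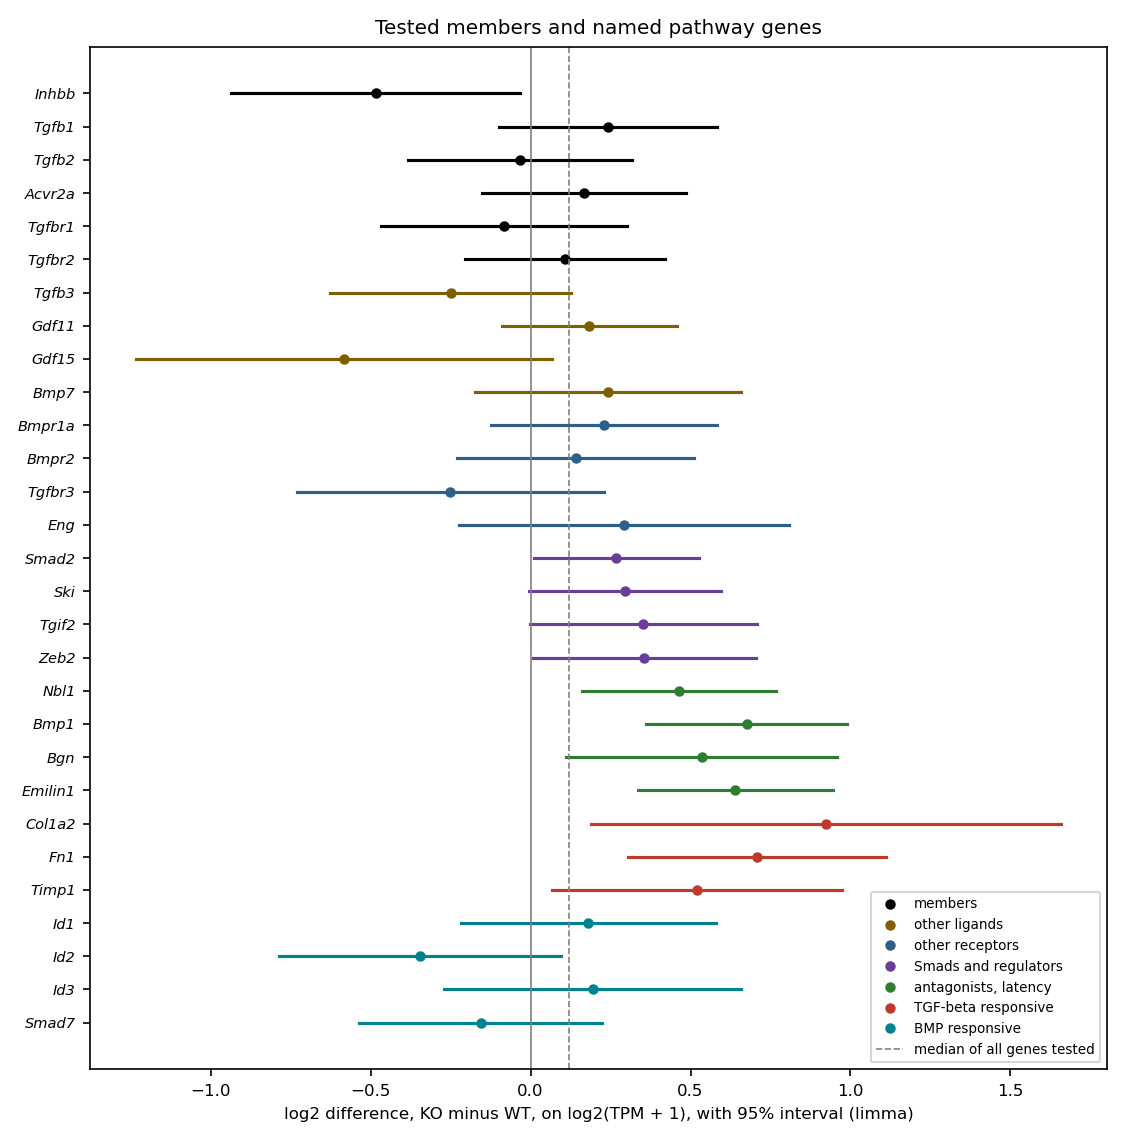
Log2 difference, KO minus WT on log2(TPM + 1), with the 95% limma interval for the 6 tested members (black) and named genes of 6 lists of the wider pathway (colours); the solid line is 0 and the dashed line the median of all genes tested, 0.12. Inhbb is the member whose interval, -0.94 to -0.03, does not reach 0, and no gene plotted passed the adjusted threshold.

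The order of levels ran from Tgfb2 and Tgfbr1 through Tgfbr2, Acvr2a, Inhbb and Tgfb1 to Fst, Inhba, Acvr2b and Mstn when taken over both groups. Over all 6 libraries Tgfb2 averaged 8.53 ± 1.06 TPM and Tgfbr1 8.41 ± 1.37 TPM (SD, n = 6), each higher in 3 libraries, and they did not differ beyond their spread. Tgfbr2 followed at 3.97 ± 0.499 TPM, below Tgfbr1 in all 6 libraries with no overlap of the ranges. Acvr2a (2.66 ± 0.430 TPM) and Inhbb (2.23 ± 0.818 TPM) overlapped, as did Inhbb and Tgfb1 (1.35 ± 0.337 TPM). Fst (0.628 ± 0.170 TPM), Inhba (0.602 ± 0.220 TPM) and Acvr2b (0.505 ± 0.112 TPM) overlapped one another, and Mstn stood below all of them in every library at 0.0383 ± 0.0376 TPM. The means of the 3 genes above Mstn ran Inhba 0.753, Fst 0.720 and Acvr2b 0.453 TPM in KO, and Acvr2b 0.557, Fst 0.537 and Inhba 0.450 TPM in WT, so their order was reversed. In KO every value of Acvr2b lay below those of Inhba and Fst, while in WT the ranges of the 3 genes overlapped. The place of Inhbb varied too, since it exceeded Acvr2a in 0 of 3 KO libraries and in 2 of 3 WT libraries.

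**Figure D4:**
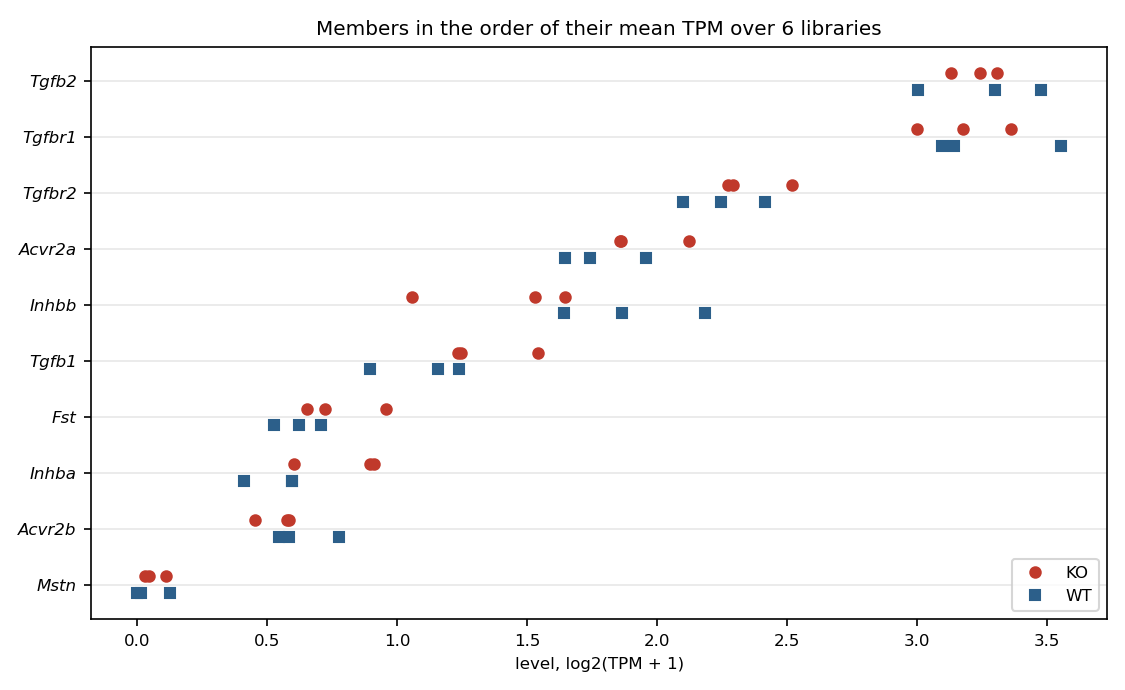
Level of each member as log2(TPM + 1) in KO libraries (red circles) and WT libraries (blue squares), ordered from the highest to the lowest mean TPM over 6 libraries. Tgfb2 and Tgfbr1 share the top, and Mstn lies at the left edge, at 0.09 TPM or less in each library.

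Predicted genes and some other types of symbol were passed over in the search for genes near Inhbb. Of the other tested genes, those whose pattern over the 6 libraries was nearest to that of Inhbb were Id2, Hk1 and Ank1. Nearness was taken as the root mean square distance of centred log2(TPM + 1) values. Their distances were 0.121, 0.128 and 0.130, where the deviation of Inhbb from its own mean was 0.341. Id2, an inhibitor of basic helix-loop-helix factors that responds to BMP, had 7.22, 10.89 and 9.06 TPM in KO libraries, against 12.86, 9.10 and 13.41 TPM in WT libraries. As in Inhbb, KO library 1 was the lowest and WT library 3 the highest. Hk1 is a hexokinase, and Ank1 an ankyrin that links the membrane to the cytoskeleton. Nearness over 6 libraries is a description.

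The wider pathway was read from 6 lists with 121 different genes, of which 74 were tested. Other ligands of the superfamily numbered 24, of which 7 were tested, 4 with a higher and 3 with a lower mean in KO and a median of 0.07, which was -0.07 under median-of-ratios scaling. Those higher were 57.1% of the tested ligands, where 77.6% of all genes tested were higher. Gdf15, a stress-induced ligand, had 0.97, 0.97 and 1.13 TPM in KO libraries, against 1.46, 1.22 and 4.09 TPM in WT libraries, and its groups did not overlap. Its log2 difference was -0.58 (SE 0.28, limma adjusted p = 0.514), and without WT library 3 it was -0.21. Gdf11, the closest relative of myostatin, had 1.76, 1.64 and 1.36 TPM in KO, against 1.21, 1.28 and 1.33 TPM in WT (limma adjusted p = 0.617), without overlap. Each of its values exceeded those of Mstn, which were 0.09 TPM or less. Tgfb3 had 5.82 ± 1.09 TPM in KO and 7.09 ± 1.08 TPM in WT (SD, n = 3 each; limma adjusted p = 0.618), between Tgfb2 and Tgfb1 in level. Bmp7 had 1.91 ± 0.410 TPM in KO and 1.48 ± 0.534 TPM in WT (SD, n = 3 each; limma adjusted p = 0.649).

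Other receptors and co-receptors numbered 14, with 7 tested and a median of 0.10 (-0.02 under median-of-ratios scaling), 0 with an unadjusted limma p under 0.05 and 0 with groups that did not overlap. Over all genes tested those shares were 10.6% and 16.6%, so counts of 0 among 7 genes say little. Tgfbr3, or betaglycan, which presents TGF-β2 to its receptor and is a co-receptor of inhibin, was more abundant than any member, at 20.5, 35.9 and 23.0 TPM in KO, against 27.9, 32.9 and 31.8 TPM in WT (log2 difference -0.25, SE 0.21, limma adjusted p = 0.686). Eng, or endoglin, a co-receptor best known in endothelium, had 1.84 ± 0.830 TPM in KO and 1.25 ± 0.255 TPM in WT (SD, n = 3 each). The 8 endothelial markers summed to between 12.4 and 25.1 TPM in KO and between 12.3 and 18.8 TPM in WT. The 8 markers of pericytes and smooth muscle summed to 38.5, 58.9 and 54.5 TPM in KO libraries, against 38.9, 39.6 and 38.7 TPM in WT libraries. Of these 8, 5 had a higher mean log2(TPM + 1) in KO. The part of either marker list in Eng was not tested. The BMP receptor gene Bmpr1a had 5.53 ± 0.450 TPM in KO and 4.62 ± 1.01 TPM in WT, and Bmpr2 10.9 ± 1.99 TPM in KO and 9.76 ± 1.25 TPM in WT (SD, n = 3 each; limma adjusted p = 0.622 and 0.750). Acvr1b, a type I receptor that activins and myostatin use but not the only one, was picked out after its values were seen and lay below the filter. It had 0.550 ± 0.0985 TPM in KO and 0.640 ± 0.114 TPM in WT (SD, n = 3 each).

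Smad proteins and their nuclear regulators were mostly higher in KO, at 16 of 19 tested genes, or 84.2%, where 77.6% of all genes tested were higher. Their median log2 difference was 0.15, against 0.12 for all genes, and 0.04 under median-of-ratios scaling. By limma 0 passed the adjusted threshold and 2 had an unadjusted p under 0.05, both higher, where 7.89% of all genes tested were higher at that level. The groups did not overlap in 6, all with KO above WT, where 13.5% of all genes tested did so. Besides the 4 genes named next these were Smurf1 and Smurf2, picked out after their values were seen, which encode ubiquitin ligases that act on Smads and receptors. Smad2, which the activin and TGF-β receptors phosphorylate, had 2.59, 2.74 and 2.78 TPM in KO libraries, against 2.04, 2.25 and 1.94 TPM in WT libraries (log2 difference 0.27, SE 0.11, limma adjusted p = 0.448). Zeb2, a Smad-binding repressor, had 22.7 ± 1.23 TPM in KO and 17.7 ± 3.07 TPM in WT, and Ski, a corepressor that binds Smads, 16.8 ± 1.87 TPM in KO and 13.4 ± 0.0436 TPM in WT (SD, n = 3 each; limma adjusted p = 0.462 and 0.474). Tgif2, another Smad corepressor, had 1.67 ± 0.439 TPM in KO and 1.08 ± 0.224 TPM in WT (SD, n = 3 each; limma adjusted p = 0.472).

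Extracellular antagonists and genes of latency and activation numbered 32, with 18 tested, 10 higher and 8 lower in KO and a median of 0.05, which was -0.05 under median-of-ratios scaling. By limma 0 passed the adjusted threshold, while 6 had an unadjusted p under 0.05, and the same 6 had KO above WT without overlap. Over all genes tested the shares were 7.89% higher at that p and 13.5% with KO above WT without overlap. A higher mean in KO was found in 55.6% of the tested genes of this list, against 77.6% of all genes tested. Bmp1, a tolloid-like protease that cleaves procollagens and the myostatin propeptide, had 6, 8.12 and 7.19 TPM in KO libraries, against 4.30, 4 and 3.84 TPM in WT libraries. Its log2 difference was 0.68 (SE 0.14, limma adjusted p = 0.153), and it passed only with protein-coding genes rescaled (limma adjusted p = 0.0426) and with library weights (limma adjusted p = 0.0483). In those settings 38 and 53 higher genes passed over all genes, against 3 in the main test. The limma adjusted p of Bmp1 was 0.210 by quantile normalization, 0.366 with no filter and 0.480 without KO library 3. Emilin1, an elastic fibre glycoprotein that holds back the processing of TGF-β precursors, had 2.62, 2.65 and 3.48 TPM in KO, against 1.65, 1.35 and 1.51 TPM in WT. Its log2 difference was 0.64 (SE 0.13, limma adjusted p = 0.153), and it passed only with library weights (limma adjusted p = 0.0494). The limma adjusted p of Emilin1 was 0.278 by quantile normalization and 0.480 without KO library 3. The BMP antagonist Nbl1 had 18.4 ± 1.15 TPM in KO and 13.1 ± 1.31 TPM in WT, and Bgn, or biglycan, a proteoglycan that binds TGF-β, 25.1 ± 3.60 TPM in KO and 17.2 ± 3.48 TPM in WT (SD, n = 3 each; limma adjusted p = 0.243 and 0.344). The remaining 2 of these 6, named after their values were seen, were Ltbp1, which ties latent TGF-β to the matrix, at 22.5 ± 4.57 TPM in KO and 14.9 ± 4.27 TPM in WT, and the follistatin relative Fstl3, at 2.27 ± 0.576 TPM in KO and 1.5 ± 0.170 TPM in WT (SD, n = 3 each). The summed levels of the fibroblast markers overlapped between the groups, although those of Dpt and Cd34 alone did not. The part of these markers in the list was not tested.

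Genes that TGF-β and activin are known to induce numbered 26, with 21 tested, 15 higher and 6 lower, and a median of 0.18 (0.03 under median-of-ratios scaling). The higher genes were 71.4% of those tested, below the 77.6% over all genes tested, whose median was 0.12. By limma 0 passed the adjusted threshold, and 4 higher and 2 lower had an unadjusted p under 0.05, where 7.89% of all genes were higher and 2.66% lower at that level. Fn1, or fibronectin, had 3.60, 6.36 and 4.95 TPM in KO, against 2.78, 2.41 and 2.59 TPM in WT (log2 difference 0.71, SE 0.18, limma adjusted p = 0.209). Others with such a p, named after their values were seen, included Itgb1, an integrin chain, with a log2 difference of 0.31, and Bhlhe40, a transcriptional repressor, with -0.47. Col1a2, a collagen chain that also marks fibroblasts, had 3.46 ± 1.95 TPM in KO and 1.25 ± 0.605 TPM in WT, and Timp1, a protease inhibitor, 1.46 ± 0.504 TPM in KO and 0.707 ± 0.317 TPM in WT (SD, n = 3 each; limma adjusted p = 0.346 and 0.391).

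Genes that respond to BMP numbered 11, with 7 tested, a median of 0.01 (-0.11 under median-of-ratios scaling), 4 higher and 3 lower, and 0 at an unadjusted limma p under 0.05. Over all genes tested 10.6% had such a p, and 77.6% were higher in KO, against 57.1% of the tested genes of this list. Id2, whose values are given above, had the smallest limma p of the list and was lower in KO (log2 difference -0.35, SE 0.19, limma adjusted p = 0.570). Id1 had 4.64 ± 1.03 TPM in KO and 3.96 ± 0.763 TPM in WT, and Id3 18.4 ± 3.11 TPM in KO and 16.1 ± 4.05 TPM in WT (SD, n = 3 each; limma adjusted p = 0.720 and 0.734). Smad7, an inhibitory Smad induced by TGF-β and BMP alike, had 4.52 ± 0.935 TPM in KO and 5.13 ± 0.805 TPM in WT (SD, n = 3 each; limma adjusted p = 0.736).

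**Figure D5:**
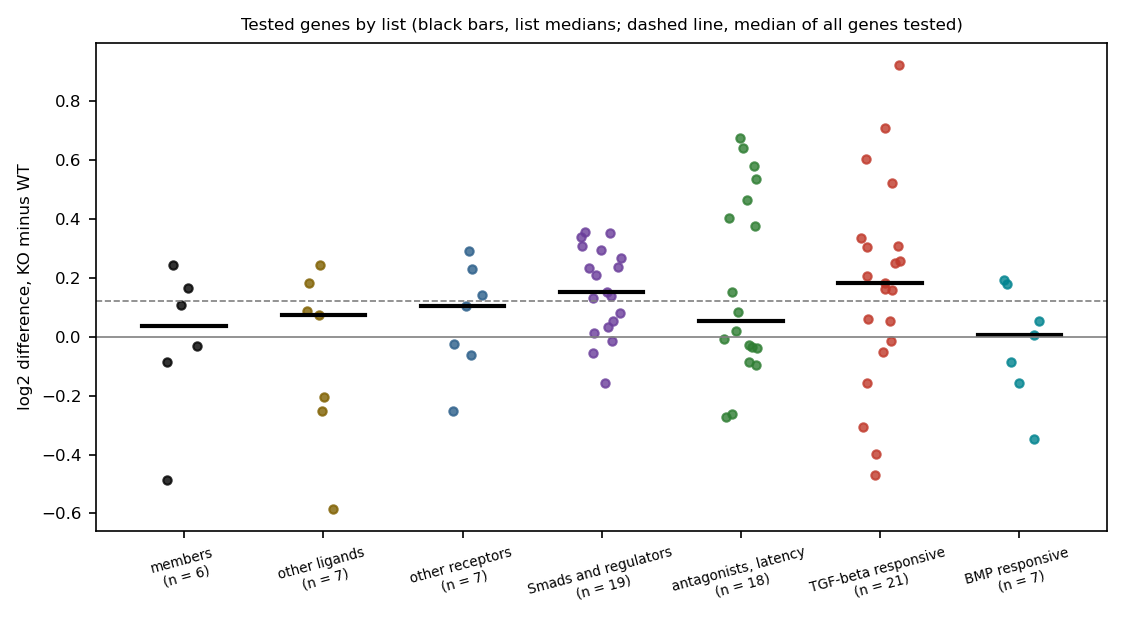
Log2 difference, KO minus WT, of each tested gene (points) in the members and in 6 lists of the wider pathway, with list medians as black bars and the median of all genes tested, 0.12, as the dashed line; sideways scatter is for legibility. Medians run from 0.01 for BMP responsive genes to 0.18 for TGF-β responsive genes, with single genes on both sides of 0 in each list.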

How the data were processed

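RNA was purified with a Qiagen RNeasy Plus Universal kit before Illumina library preparation, per the labels' protocols. Tools named in the submitters' processing notes are kallisto, Trimmomatic 0.33, CASAVA and FastQC, with builds GRCm38 and mm10 and no role or order. Strandedness and annotation are not given in the sources used here. TPM values per symbol are what the authors deposited, so no count model was used. A gene was tested if it reached a TPM of 1 in 3 or more of the 6 libraries (8971 of 24980). Values were taken as log2(TPM + 1), a scale that understates changes of low genes, and compared with limma 3.58.1 (R 4.3.3; trended eBayes; two-sided), p being adjusted over all genes tested by Benjamini-Hochberg, threshold 0.05. Exact permutation tests used scipy 1.17.1. The limma procedure was tested on simulated data. Libraries of a genotype are numbered in accession order.

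Members and lists were chosen with earlier results of these data known. All members and Esr1 were named, then the 4 tested genes of each list with the smallest p, and the 3 nearest to the member with the smallest p. One gene that this rule selects is not reported here. In the search for the 3 nearest genes, symbols made of Gm and a number and those ending in Rik were passed over. Symbols starting with a digit, or with a capital letter directly followed by a digit, were passed over too. Ccn2 was matched from its older symbol, Ctgf. Coordinates are GENCODE vM21 on GRCm38, promoters RefSeq on GRCm38.p6. The 15 alternatives were pseudocounts of 0.1 and 5, no filter or one on mean TPM of 1, median-of-ratios scaling, quantile normalization, protein-coding genes rescaled to a common total, eBayes without a trend, library weights, and leaving out each library.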

Additional observations from a re-analysis of the deposited data

How the results depend on the processing

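The count of members past the threshold was 0 under all 15 alternatives by limma. Inhbb, Tgfb1 and Acvr2a, and Inhba, Fst and Acvr2b below the filter, kept their direction wherever a value could be had; quantile normalization gives none for untested genes. Tgfb2 turned to 0.028 with protein-coding genes rescaled, and Tgfbr2 to -0.015 by median of ratios and -0.038 by quantile normalization. Leaving out 1 library gave -0.011 to 0.054 for Mstn (-0.0014 without WT library 1, -0.0086 without WT library 3), -0.16 to 0.075 for Tgfb2 (0.015 without KO library 1) and -0.18 to 0.060 for Tgfbr1 (0.0055 without KO library 3). Of the list medians, median of ratios and quantile normalization turned those of BMP responsive genes (-0.11 and -0.11), other ligands (-0.066 and -0.077), other receptors (-0.019 and -0.054) and antagonists (-0.048 and -0.066). The BMP responsive median was -0.028 at a pseudocount of 0.1. With 1 library left out it ranged from -0.20 to 0.076, that of other ligands from -0.016 to 0.10 and that of antagonists from -0.0054 to 0.14. The cause was not tested.

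Over all genes, 3 higher and 2 lower passed. Higher counts were 0 at a pseudocount of 0.1, with no filter and with a filter on mean TPM, 1 by median of ratios and by quantile normalization, 38 with protein-coding genes rescaled and 53 with library weights. Lower counts were 0 at a pseudocount of 5, with no filter, with a filter on mean TPM and by quantile normalization, 48 with protein-coding genes rescaled and 27 with library weights. Leaving out 1 library gave 0 to 4 higher and 0 to 2 lower. By limma 0 were higher without KO library 3 (474 at an unadjusted p under 0.05) and 1 without WT library 1, while 0 were lower without any 1 KO library and 1 without WT library 3. Esr1 passed with protein-coding genes rescaled (log2 difference -0.96) and with library weights (-0.86). No paired analysis was run, since no title number is shared between KO and WT. Whether libraries shared a litter or a batch is not given. The title number of WT library 2 stands apart from the others. Leaving out 1 library gave 438 to 1202 higher genes at an unadjusted limma p under 0.05, the most without WT library 2, against 708 with all libraries. Depth is unknown, and the 4 members under 1 TPM have the least certain values.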
